A study of Mus musculus with 12 samples.

Results

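Major histocompatibility complex (MHC) class I genes and the genes that supply their peptides were described in the skin of mice with atopic dermatitis (AD)-like lesions. The group held 10 genes, H2-K1, H2-D1, B2m, Tap1, Tap2, Tapbp, Psmb8, Psmb9, Psmb10 and Nlrc5, which were found by symbol among the 23282 entries of the count table. All 10 had enough reads to be tested, as had 14163 entries in all. Skin RNA came from 5 AD mice and 7 AD+OB mice, wild-type males of the C57BL/6J strain that were 5 weeks old at the start, with 1 library per mouse. Both groups received 0.5% DNCB, a hapten that provokes allergic skin inflammation, 3 times a week for 6 weeks. The AD+OB mice (HF + AD in the study) were fed a high-fat (HF) diet with 60% of its calories from fat, for 4 weeks before DNCB and 10 weeks in all, whereas the AD mice received standard chow. The model is therefore one of chemically induced lesions and diet-induced obesity, in a single sex and strain, and mice without DNCB were not analysed here.

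Class I molecules show peptides from inside the cell to CD8 T cells, and nearly all nucleated cells carry them. The immunoproteasome, in which Psmb8, Psmb9 and Psmb10 take the places of the constitutive catalytic subunits Psmb5, Psmb6 and Psmb7, cuts proteins into peptides. The TAP transporter, a heterodimer of Tap1 and Tap2, moves the peptides into the endoplasmic reticulum, where tapasin (Tapbp) helps to load them onto a heavy chain paired with B2m. Interferon-γ is a known inducer of this pathway, and NLRC5 is the transactivator that acts on class I promoters.

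In the GRCm38 genome the members lie on chromosomes 17, 2 and 8. Within the MHC on chromosome 17, Tapbp (chr17:33915899-33929292, plus strand) and H2-K1 (chr17:33996017-34000347, minus strand) lie at one end and H2-D1 (chr17:35262730-35267499, plus strand) at the other. Between them, Psmb9 (chr17:34181987-34187764, minus strand), Tap1 (chr17:34187553-34197225, plus strand), Psmb8 (chr17:34197721-34201454, plus strand) and Tap2 (chr17:34203527-34216321, plus strand) are neighbours. B2m (chr2:122147686-122153083, plus strand) is on chromosome 2, and Nlrc5 (chr8:94434356-94527272, plus strand) and Psmb10 (chr8:105935735-105938444, minus strand) are on chromosome 8.

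The upstream sequences of the class I chains, and the stretch between the start sites of Tap1 and Psmb9, are shown because the members that share such a region can be set beside each other in the results that follow. They are RefSeq sequences on GRCm38.p6, given 5′ to 3′ on the strand of the gene, and the first 3 are the 200 bases before the RefSeq start site. The gene positions above are from GENCODE, which starts H2-D1, Psmb9, Tapbp and Psmb8 further upstream, and Tap1 and B2m by a few bases. The windows of Tapbp and Psmb8 searched for motifs below lie inside the GENCODE genes. The H2-D1 stretch and the Tap1 and Psmb9 stretch likewise lie inside the GENCODE genes of H2-D1 and Psmb9. H2-K1 is at chr17:34000348-34000547, H2-D1 at chr17:35262894-35263093 and B2m at chr2:122147487-122147686, and the fourth stretch, of 225 bases, is at chr17:34187331-34187555 and is written on the strand of Tap1. Capitals mark matches, on either strand, to GAAANNGAA or GAANNGAAA (forms of the interferon-stimulated response element), TTCNNNGAA (the interferon-γ activation site), GGGANNNCC (the kappa-B site) and CCAAT.
H2-K1: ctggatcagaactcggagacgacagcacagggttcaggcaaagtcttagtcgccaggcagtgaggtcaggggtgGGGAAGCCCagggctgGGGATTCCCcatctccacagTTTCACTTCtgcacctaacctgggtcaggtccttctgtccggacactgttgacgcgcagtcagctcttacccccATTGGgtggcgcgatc
H2-D1: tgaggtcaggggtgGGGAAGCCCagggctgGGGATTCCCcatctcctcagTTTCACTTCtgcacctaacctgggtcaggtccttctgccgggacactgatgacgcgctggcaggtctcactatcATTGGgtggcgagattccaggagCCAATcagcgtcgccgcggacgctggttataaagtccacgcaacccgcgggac
B2m: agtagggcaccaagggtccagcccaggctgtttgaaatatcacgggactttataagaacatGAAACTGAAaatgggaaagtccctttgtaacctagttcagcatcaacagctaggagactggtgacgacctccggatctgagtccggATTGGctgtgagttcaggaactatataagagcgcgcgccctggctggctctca
Tap1 and Psmb9: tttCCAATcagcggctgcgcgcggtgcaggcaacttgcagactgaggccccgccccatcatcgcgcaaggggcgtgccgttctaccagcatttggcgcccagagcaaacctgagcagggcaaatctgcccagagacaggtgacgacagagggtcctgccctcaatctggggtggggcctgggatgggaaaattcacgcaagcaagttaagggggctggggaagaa
The windows of H2-K1 and H2-D1 both hold GGGAAGCCC, GGGATTCCC and TTTCACTTC in the same order, and that of B2m holds GAAACTGAA. In windows from 250 bases before the start, which RefSeq gave for 8 of the 10 members and for 27025 genes in all, GAAANNGAA was found upstream of B2m alone among the members and in 8.18% of all genes. GAANNGAAA, a motif added after the sequences were seen, was found upstream of H2-K1 and H2-D1 and in 7.3% of all genes, and GGGANNNCC upstream of the same pair and in 17.8% of all genes. TTCNNNGAA was found upstream of Psmb8 and in 8.13% of all genes. CCAAT was found upstream of 6 of the 8 members and in 37.5% of all genes. The match of Tap1 and that of Psmb9 are the same site, in the stretch between their start sites, counted for both genes.

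The libraries held 9746937 to 11688979 counts per AD mouse and 10726845 to 13462434 per AD+OB mouse, and a count of 0, which allows 3 counts, stood for at most 0.310 CPM (counts scaled to the library's total after TMM normalization). The number of genes with a read was 13100 to 15063 in AD and 15522 to 16677 in AD+OB mice, ranges that did not overlap. Markers of skin cell types were present in both groups. The summed level of 6 keratinocyte markers was 3781 to 6386 CPM in AD and 7019 to 12500 CPM in AD+OB mice, with 3 of the 6 called higher, and that of 6 hair shaft markers was 1943 to 4334 and 3579 to 5722 CPM, also with 3 called higher. For 7 skeletal muscle markers, 2 of them called lower, it was 1109 to 2263 CPM in AD and 664 to 1763 CPM in AD+OB mice. For 5 endothelial markers, 2 of them called higher, it was 22.2 to 39.0 and 35.8 to 79.0 CPM. By log2 fold change, called or not, 4 keratinocyte markers were higher and 2 lower, and 1 muscle marker was higher and 6 lower. All 6 hair shaft and all 5 endothelial markers were higher. None of the tested markers of T cells (7.25 to 18.0 and 4.24 to 13.5 CPM), macrophages and dendritic cells (26.8 to 138 and 55.0 to 211 CPM), neutrophils (0.706 to 2.81 and 0.734 to 12.6 CPM), fibroblasts (2972 to 8564 and 2623 to 8209 CPM) or adipocytes (21.8 to 186 and 13.9 to 204 CPM) was called, and of all markers only the neutrophil gene Elane was at 0 in every AD mouse. The part of the number of genes detected and of these cell types in the results on the members was not tested.

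The members did not move together. In the comparison of AD+OB with AD mice, 6 of the 10 genes were called by edgeR's quasi-likelihood test at an adjusted p under 0.05, against 9.2% of all genes tested. Tap2 and Tapbp were higher in AD+OB mice, a direction called for 4.43% of all genes, and Tap1, Psmb8, Psmb10 and Nlrc5 were lower, a direction called for 4.77%. At an unadjusted p under 0.05, 9 of the 10 members passed, 4 higher and 5 lower, as did 25.1% of all genes. The median log2 fold change over the 10 members was −0.21, and over all genes tested it was 0.02. The groups did not overlap for 4 members, Tap1, Tap2, Psmb8 and Nlrc5, against 5.56% of the 13200 genes with a mean count of at least 20. Tap2 was apart as the higher group, as were 2.83% of these genes, and the other 3 as the lower group, as were 2.73%. In whole skin, fewer cells of a type and less RNA per cell cannot be told apart.

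**Figure D1:**
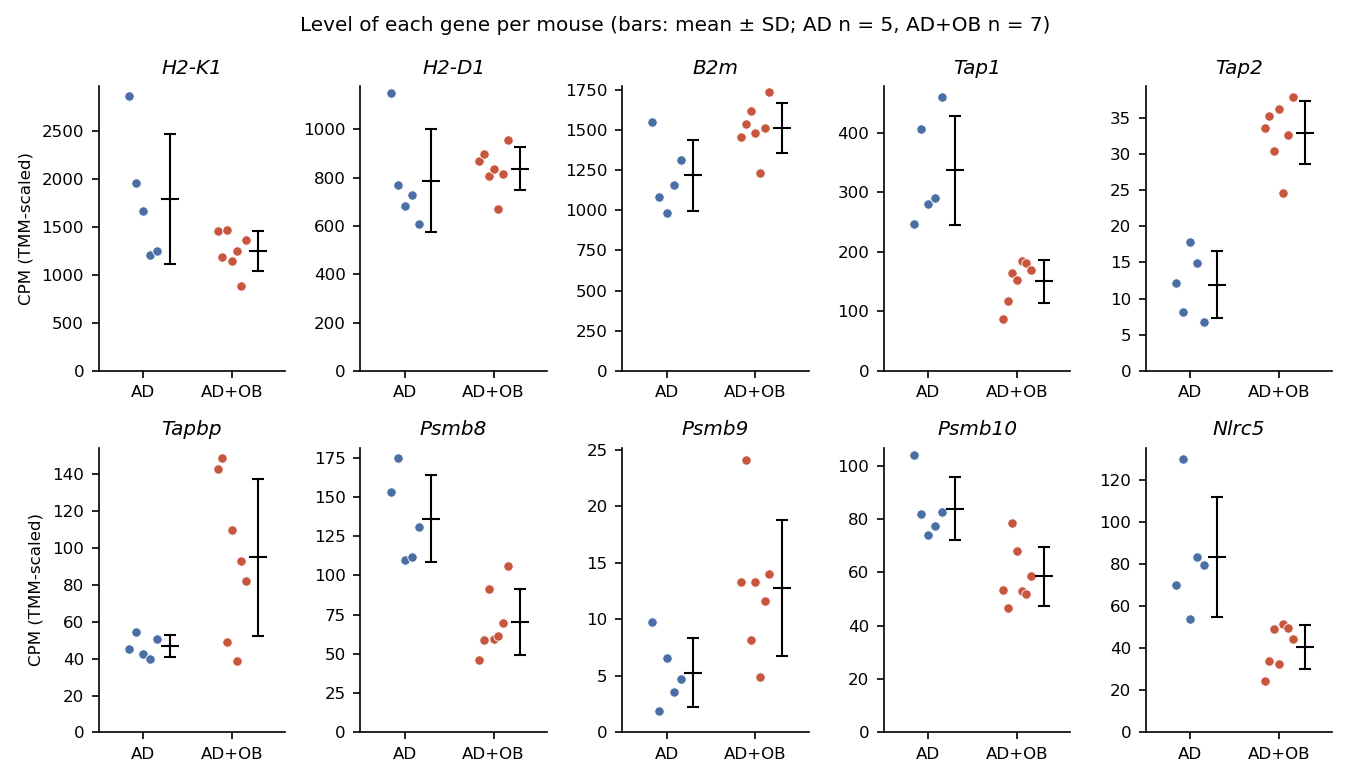
Level of each gene in TMM-scaled CPM (vertical axes, linear, from 0) in every AD mouse (blue, n = 5) and AD+OB mouse (red, n = 7), with the mean and SD in black. Points of the groups are apart for Tap1, Psmb8 and Nlrc5, which were lower in AD+OB mice, and for Tap2, which was higher, and they overlap for the other 6 genes.

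The heavy chains and their light chain were among the genes with no call. H2-K1 encodes the K heavy chain, and its level in AD mice 1 to 5 was 2874, 1960, 1668, 1206 and 1251 CPM. In AD+OB mice the lowest level was 884, the median 1248 and the highest 1468 CPM. AD mice 1, 2 and 3 lay above all AD+OB mice, and the other two lay within their range. The log2 fold change of −0.52 (SE 0.19) was not called (edgeR adjusted p = 0.101), and the exact permutation test on log2(CPM + 1) gave p = 0.0530. Without AD mouse 1 it was −0.28, and leaving out AD mouse 4 gave an exact permutation p of 0.0152 and leaving out AD mouse 5 one of 0.0242, in a range of 0.0152 to 0.167 over 16 alternatives. H2-D1, the D heavy chain, was at 1151, 770, 684, 728 and 607 CPM in AD mice and at 672, 837 and 955 CPM (lowest, median, highest) in AD+OB mice. The groups overlapped, with AD mouse 1 above and AD mouse 5 below all AD+OB mice. Its log2 fold change was 0.09 (SE 0.15, edgeR adjusted p = 0.770, exact permutation p = 0.462). Without AD mouse 1 it was 0.27 (edgeR adjusted p = 0.173, in a range of 0.173 to 0.984 over 20 alternatives), with an exact permutation p of 0.0303 (0.0303 to 0.855 over 16 alternatives). Reads could not be told apart fully between the chains, since 9.53% of the 50-base windows in the last 500 bases of the H2-D1 transcript occur in other genes, as do 0.443% of those of H2-K1, and no such window was found in the other 8 members.

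B2m, the light chain that all class I heavy chains share, was at 1547, 1085, 986, 1156 and 1315 CPM in AD mice. AD+OB mice were between 1230 and 1736 CPM with a median of 1515 CPM. AD mouse 1 was as high as the AD+OB mice, and the other AD mice lay low in or below their range. Its fold change on the log2 scale was 0.31 (SE 0.13), with an edgeR adjusted p of 0.142 and an exact permutation p of 0.0278 for this single gene. Without AD mouse 1 it was 0.42 with an adjusted p of 0.0497, in a range of 0.0497 to 0.358 over 20 alternatives.

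The TAP transporter subunits moved in opposite directions. Tap1 was at 247, 406, 281, 290 and 460 CPM in AD mice and at 86.8, 164 and 184 CPM (lowest, median, highest) in AD+OB mice. Every AD+OB mouse lay below every AD mouse. Its mean log2(CPM + 1) was 8.36 ± 0.38 (SD, n = 5) in AD and 7.20 ± 0.39 (SD, n = 7) in AD+OB mice, and the log2 fold change was −1.16 (SE 0.19, edgeR adjusted p = 0.00459), a level 2.24 times higher in AD mice. Tap2 was at 12.1, 8.18, 17.8, 14.9 and 6.69 CPM in AD mice and at 24.6, 33.6 and 37.8 CPM in AD+OB mice. Here every AD+OB mouse lay above every AD mouse, on 74 to 176 counts per AD mouse and 263 to 503 per AD+OB mouse. The means of log2(CPM + 1) were 3.61 ± 0.54 (SD, n = 5) and 5.07 ± 0.20 (SD, n = 7), and the log2 fold change was 1.47 (SE 0.25, edgeR adjusted p = 0.00492), or 2.76 times. For both genes the exact permutation p was 0.00126, the smallest that splits of 5 and 7 mice can give, and both calls were made under all 20 alternatives.

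Tapbp encodes tapasin, which holds the empty heavy chain near the transporter. It was at 45.3, 54.7, 42.7, 39.9 and 50.5 CPM in AD mice, a narrow range. AD+OB mice were spread from 38.7 to 149 CPM with a median of 92.9 CPM, and 5 of the 7 lay above all AD mice while AD+OB mouse 5 lay below them. For Tapbp the log2 fold change was 1.03 (SE 0.28, edgeR adjusted p = 0.0314, exact permutation p = 0.0404). The call was lost without AD mouse 2, 3 or 4 or without AD+OB mouse 1, 2 or 4 (adjusted p 0.0511 to 0.0744), and 11 of the 20 alternatives kept it. The chaperones that work with tapasin are described with the rest of the pathway.

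**Figure D2:**
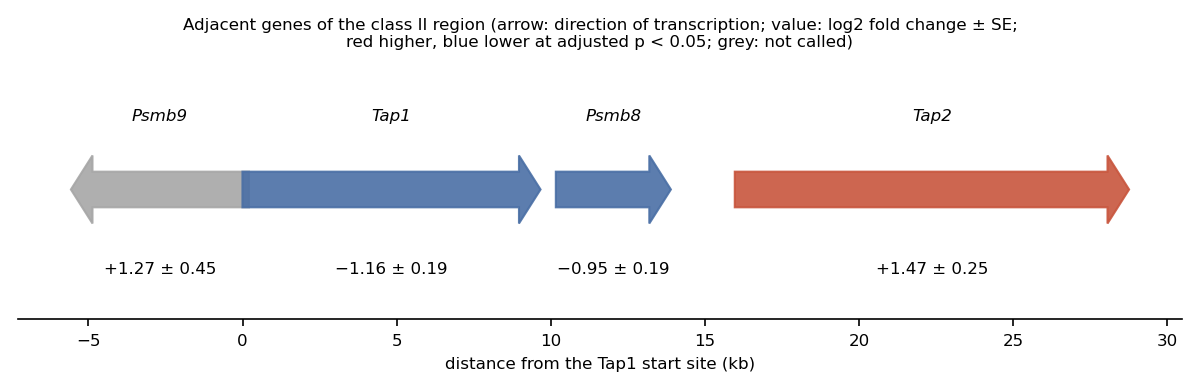
Psmb9, Tap1, Psmb8 and Tap2 drawn to scale by distance in kb from the start site of Tap1 (horizontal axis), with arrows in the direction of transcription and the log2 fold change of AD+OB over AD ± SE under each. Tap1 and Psmb8 (blue) were lower in AD+OB mice and Tap2 (red) higher, and Psmb9 (grey), at 1.27 ± 0.45, was not called.

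Of the immunoproteasome subunits, Psmb8 and Psmb10 fell and Psmb9 was not called. Psmb8, the subunit β5i, was at 153, 175, 110, 112 and 131 CPM in AD mice and at 46.0, 61.6 and 106 CPM (lowest, median, highest) in AD+OB mice. The groups did not overlap, although the highest AD+OB mouse came close to the lowest AD mouse. Its log2 fold change was −0.95 (SE 0.19, edgeR adjusted p = 0.00960, exact permutation p = 0.00253), with calls under all 20 alternatives. Psmb10, the subunit β2i, was at 104, 81.8, 73.9, 77.3 and 82.5 CPM in AD mice and at 46.7, 53.3 and 78.5 CPM in AD+OB mice. AD+OB mouse 3 lay among the AD mice and the other 6 lay below all of them. The log2 fold change of −0.52 (SE 0.15, edgeR adjusted p = 0.0446, exact permutation p = 0.00631) was close to the threshold. It kept its call under 7 of 20 alternatives (adjusted p 0.00903 to 0.193), and leaving out any mouse other than AD mouse 3 or AD+OB mouse 3 ended it.

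Psmb9, the subunit β1i, had few reads, between 18 and 311 counts per mouse. It was at 9.79, 1.86, 6.56, 3.54 and 4.70 CPM in AD mice and at 4.87, 13.3 and 24.1 CPM (lowest, median, highest) in AD+OB mice. AD+OB mice 3 and 5 lay within the AD range and the other 5 above it. The log2 fold change of 1.27 (SE 0.45) was not called (edgeR adjusted p = 0.0835), and the exact permutation p was 0.0164. It was called without AD mouse 1 (1.62, adjusted p = 0.0309), without AD+OB mouse 5 (1.41, adjusted p = 0.0472) and by DESeq2's Wald test (1.26, adjusted p = 0.0351), in a range of adjusted p from 0.0309 to 0.304 over 20 alternatives.

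Nlrc5, the class I transactivator, was at 69.8, 130, 54.0, 83.1 and 79.6 CPM in AD mice and at 24.5, 44.2 and 51.4 CPM in AD+OB mice. All AD+OB mice lay below all AD mice. For Nlrc5 the log2 fold change was −1.03 (SE 0.22, edgeR adjusted p = 0.0115), a level 2.05 times higher in AD mice, and the exact permutation p was again 0.00126. Of its neighbours by annotation, the exons of Nlrc5 share 78 bases with an opposite-strand transcript on which 0 to 5 reads were counted per mouse. The exons of Tap1 and Psmb9 share 212 bases on opposite strands, at the 5′ ends of both genes, whereas the libraries read 3′ ends. The exons of Tapbp and Zbtb22 share 149 bases on the same strand, with 286 to 652 counts on Zbtb22. Antisense transcripts overlap exons of Tap2, Tapbp and Psmb8 by up to 904 bases. Whether strand was used in the counting is not given in the sources used here, so that reads from these shared bases are uncertain.

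**Figure D3:**
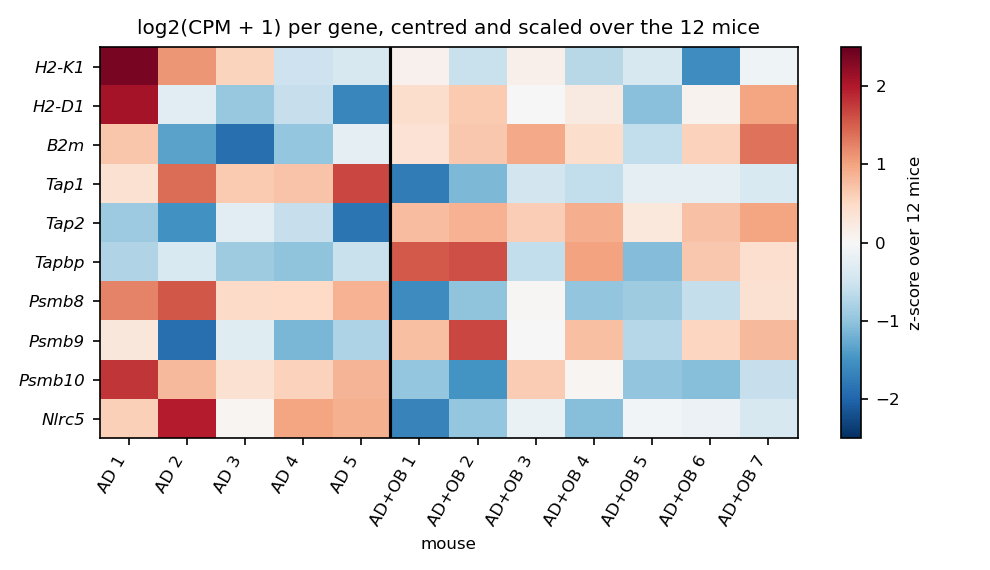
Level of the 10 genes (rows) in the 12 mice (columns, AD left and AD+OB right of the line) as z-scores of log2(CPM + 1) over the 12 mice, from blue (low) to red (high). Tap1, Psmb8 and Nlrc5 are red or near white in AD and mostly blue in AD+OB mice, Tap2 is the reverse, and Tapbp and Psmb9 differ among the AD+OB mice.

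Ratios within a library do not depend on its depth, and 6 were compared between groups, each by the two-sided exact permutation test with adjustment over the 6. Counts of different genes are not scaled by length, so that a ratio is set only against the same ratio in other mice. Tap1 over Tap2 was 20.5, 49.7, 15.8, 19.5 and 68.8 in AD mice and 2.58, 4.48 and 7.47 (lowest, median, highest) in AD+OB mice. The groups were far apart, with a log2 difference of −2.71, or 6.54 times (p = 0.00126, adjusted 0.00758, exact permutation). H2-K1 over B2m was 1.86, 1.81, 1.69, 1.04 and 0.951 in AD mice and 0.584 to 1.01 in AD+OB mice, a log2 difference of −0.78 (p = 0.00505, adjusted 0.0152, exact permutation). H2-D1 over B2m differed by −0.21 with a p of 0.0922 (adjusted 0.111, exact permutation), and without AD mouse 5 by −0.32 with a p of 0.00303, in a range of 0.00303 to 0.212 over the mice left out.

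The ratios of an immunosubunit to the constitutive subunit whose place it takes also differed in direction. Psmb8 over Psmb5 was 1.24, 1.16, 0.596, 0.612 and 0.594 in AD mice and 0.332 to 0.726 with a median of 0.449 in AD+OB mice. AD mice 1 and 2 stood above the other three, and the log2 difference was −0.79 (p = 0.0177, adjusted 0.0265, exact permutation). Psmb9 over Psmb6 was 0.0654, 0.0132, 0.0362, 0.0193 and 0.0199 in AD mice and 0.0331 to 0.133 in AD+OB mice, a log2 difference of 1.45 (p = 0.0101, adjusted 0.0202, exact permutation). Psmb10 over Psmb7 had a log2 difference of 0.13 with overlapping groups (p = 0.679, exact permutation).

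**Figure D4:**
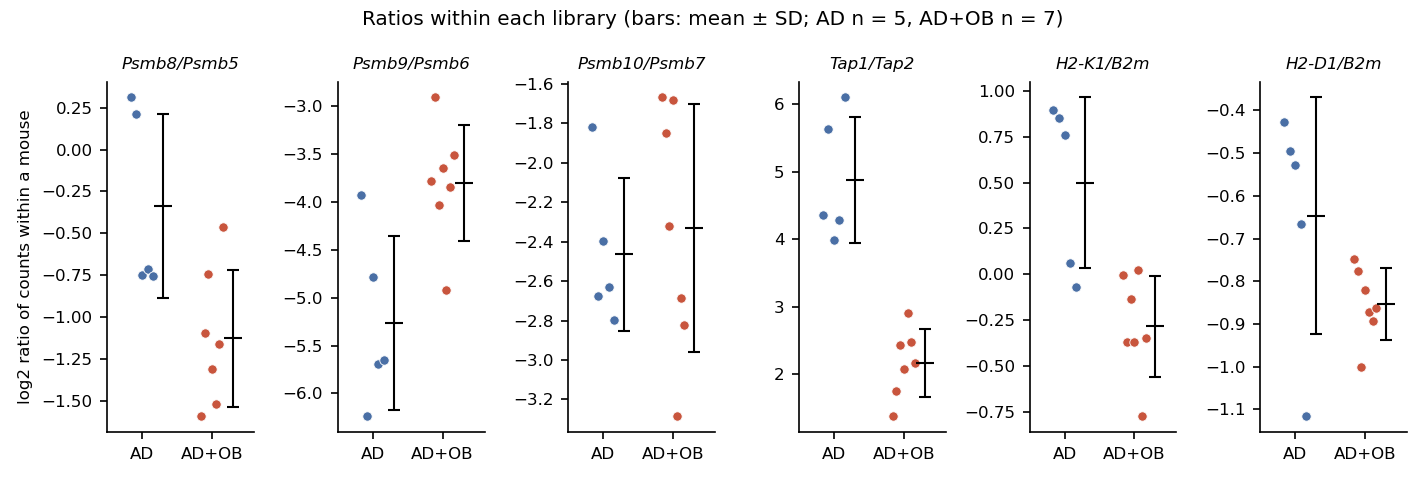
Log2 of the ratio of counts of each named gene pair within a library (vertical axes, one scale per panel), per mouse, for AD (blue, n = 5) and AD+OB (red, n = 7), with the mean and SD in black. The groups are apart only for Tap1 over Tap2, and the mean is lower in AD+OB mice for 4 ratios and higher for Psmb9 over Psmb6 and Psmb10 over Psmb7.

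The rest of the pathway was described over 7 lists with 63 genes, of which 54 were tested, 5 were called higher and 1 lower, with a median log2 fold change of 0.12. The calls made up 11.1% of the genes tested, near the 9.2% over all genes. Without Klrd1, which passed the filter on low counts through the AD+OB mice, 4 were called higher and 1 lower. Of the 6 genes of peptide trimming and loading, 3 were called higher. Calr, calreticulin, a chaperone of the loading complex, was at 152 to 257 CPM in AD and 274 to 574 CPM in AD+OB mice, with a log2 fold change of 1.07 (SE 0.20, edgeR adjusted p = 0.00674). Pdia3, the disulfide isomerase ERp57 that binds tapasin, had a log2 fold change of 0.71 (SE 0.20, edgeR adjusted p = 0.0329), which was not called without AD mouse 2, 4 or 5 or AD+OB mouse 1, 2, 4 or 6 (0.0533 to 0.0715). Hspa5, the chaperone BiP of the endoplasmic reticulum, was at 303 to 459 CPM in AD and 546 to 1169 CPM in AD+OB mice, with a log2 fold change of 0.92 (SE 0.19, edgeR adjusted p = 0.0103). The groups did not overlap for Calr or Hspa5. Erap1, which trims peptides, had a log2 fold change of −0.55 (adjusted p = 0.0900) and Canx, calnexin, one of −0.35 (adjusted p = 0.0604), and neither was called by edgeR.

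Among 4 proteasome activator genes, Psme4 was called lower, at 378 to 459 CPM in AD and 200 to 351 CPM in AD+OB mice (log2 fold change −0.61, SE 0.14, edgeR adjusted p = 0.0157). Psme1 and Psme2, whose products form the interferon-inducible cap, had log2 fold changes of −0.15 and −0.09 and were not called. The constitutive subunits Psmb5, Psmb6 and Psmb7 had −0.21, −0.13 and −0.56, with no call. None of the 8 tested genes among 11 other class I chains was called. For H2-T23 and H2-M3 the values were 0.28 (SE 0.65) and −0.28 (SE 0.99). H2-Q9, a class I entry with more counts than any of these chains, was not in the list and is described under other observations.

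Of 17 regulators of the pathway, Irf9, a transcription factor of interferon signalling, was called higher (0.67, SE 0.18, edgeR adjusted p = 0.0313). The call was lost without AD mouse 2 or 3 or AD+OB mouse 1, 4 or 6 (0.0507 to 0.0641). Irf1, an interferon-inducible transcription factor, had a log2 fold change of −0.44 (SE 0.18, adjusted p = 0.128), and Rfx5, a subunit of the complex that binds class I promoters, had 0.23 (SE 0.18). Without AD mouse 3, Irf1 had −0.58 with an adjusted p of 0.0365, in a range of 0.0365 to 0.322 over 20 alternatives. Of 13 other genes induced by interferon-γ none was called by edgeR, and at an unadjusted p under 0.05 1 was higher, Cd274 (0.89, adjusted p = 0.183), and 4 were lower, Cxcl9 (−0.73), Cxcl10 (−1.13, adjusted p = 0.0534), Gbp4 (−0.90) and Igtp (−0.72), as against 12.3% and 12.8% of all genes in these directions.

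Genes of CD8 T cells and NK cells were near the limit of detection. Of 9 such genes 3 were tested, and Klrd1, a receptor of NK cells and T cells, was called higher (edgeR adjusted p = 0.0488) on counts of 0, 0, 0, 4 and 0 in AD mice and of 0 to 60 in AD+OB mice. That call was made without AD mouse 4 or AD+OB mouse 5 and lost without AD mouse 1, 2, 3 or 5 or AD+OB mouse 2 (0.0660 to 0.0894). Without any 1 of the other 5 AD+OB mice the filter on low counts removed the gene, and with no such filter its adjusted p was 0.0649 (0.00960 to 0.188 over 14 alternatives). Cd8a, a chain of the co-receptor that binds class I, had 75, 0, 0, 1 and 6 counts in AD and 0 to 27 in AD+OB mice. Ifng, the gene of interferon-γ, had 7 counts in AD mouse 5 and 0 in the other AD mice, and 0 to 24 in AD+OB mice. Prf1 was at 0 in all mice.

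**Figure D5:**
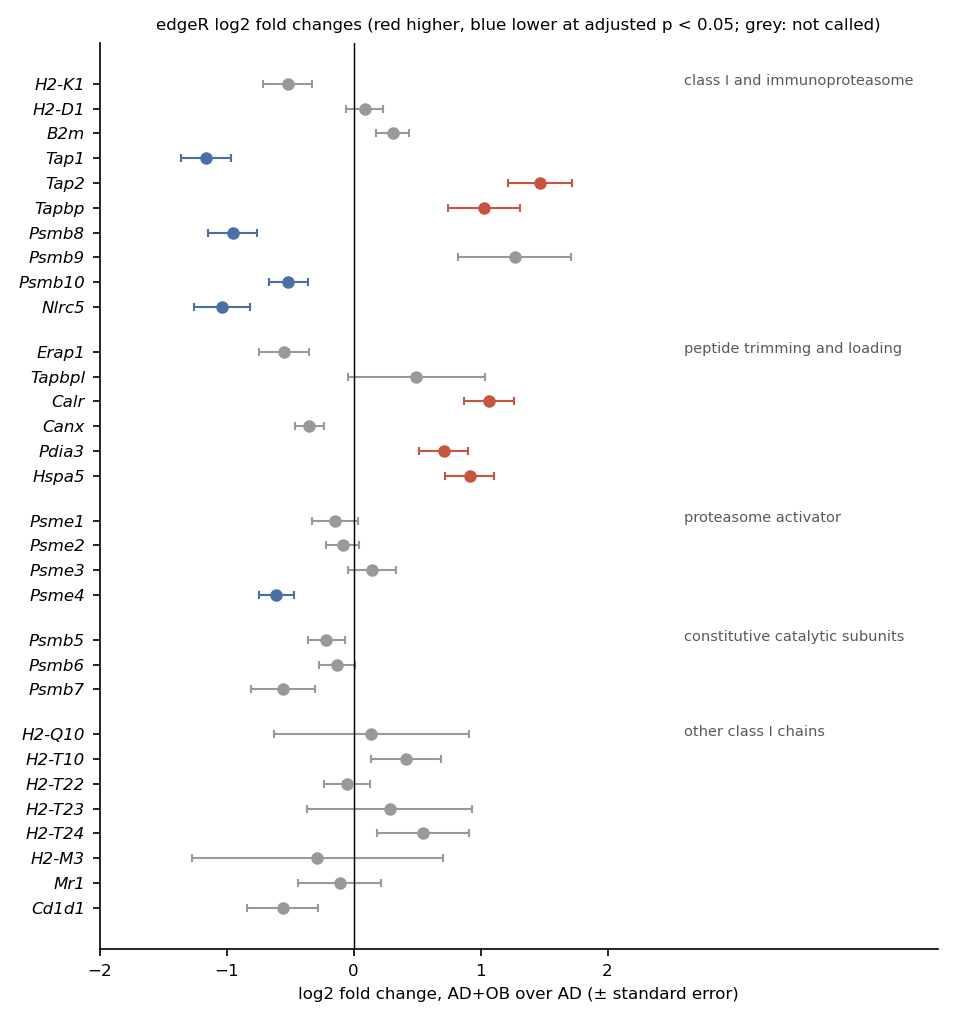
Log2 fold changes of AD+OB over AD from edgeR (horizontal axis, ± SE) for the 10 genes and for tested genes of 4 pathway lists (rows). Red and blue points were called higher and lower at an adjusted p under 0.05 and grey points were not called. Tap1 and Tap2 lie at −1.16 and 1.47, and all 8 other class I chains are grey.

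Among the 7 AD+OB mice, Nlrc5 and Tap1 varied together over mice (Pearson's r = 0.92, Spearman's rho = 0.93, and r = 0.96 without the 2 mice farthest from the median of Nlrc5), the highest r among the pairs of Nlrc5 with the other members. For Nlrc5 and Psmb8 r was 0.69 and fell to 0.27 without 2 mice, and for Nlrc5 and Tapbp it was −0.80. The r of Nlrc5 was −0.28 with H2-K1, −0.46 with H2-D1 and −0.03 with B2m. With Tap2 it was −0.50, with Psmb9 −0.58 and with Psmb10 0.20. Over the mice of that group, H2-D1 and Tap2 had r = 0.95, or 0.65 without 2 mice. The 45 pairs were looked at on log2(CPM + 1) of the same libraries, whose depth and cell makeup the points share, and the values are descriptions with no test.

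The genes whose pattern over the 12 mice was most like the mean z-score of the 10 members, among 10142 genes with a mean count of at least 100, were Gng12 (r = 0.88), Gtf2b (0.86), Aldh1a1 (0.85), Per1 (0.85), Prnp (0.83), B4gat1 (0.82), Lpl (0.80) and Edc4 (0.80). Within the 7 AD+OB mice, with z-scores and their mean taken anew over these mice alone, the r of these genes was between 0.62 and 0.87. The members' own r with the mean over the 12 mice, to which each contributes, ran from −0.13 for Tap2 to 0.80 for H2-D1. For the other called members it was 0.05 for Tapbp, 0.08 for Tap1, 0.17 for Nlrc5 and 0.51 for Psmb8 and Psmb10. Genes like the mean are therefore not shown to be like Tap1, Tap2, Tapbp or Nlrc5. Within the 7 AD+OB mice the order differed, with 0.97 for B2m, 0.77 for Tap2 and 0.16 for H2-K1, which had 0.64 over the 12 mice.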

How the data were processed

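Skin libraries of 5 AD and 7 AD+OB mice had been made with the QuantSeq kit, which reads the 3′ end of polyadenylated RNA. The authors deposited unnormalized counts of reads for each symbol. The submitters' processing notes name Bowtie2, bedtools and mm10; the annotation, the use of strand and the handling of duplicates are not given in the sources used here. Since reads come from the 3′ end, shared or overlapping ends can move counts between genes.

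Samples were grouped by label. AD+OB was compared with AD in edgeR 4.0.16 under R 4.3.3 (TMM, filterByExpr, quasi-likelihood test, Benjamini-Hochberg adjustment for 14163 genes, threshold 0.05). For single genes and ratios, all splits of the mice into 5 and 7 were enumerated (exact permutation, two-sided), on log2(CPM + 1) with TMM-scaled totals for genes. The labels number the samples without naming the animals, so p-values measure the spread between these samples, and floors cover counting error alone. Further tools were DESeq2 1.42.0, limma 3.58.1, Python 3.11.15, NumPy 2.4.6, SciPy 1.17.1, pandas 2.3.3 and matplotlib 3.10.9. Positions came from GENCODE on GRCm38 and upstream sequences from RefSeq. The fit was tested on simulated data.

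The members, lists and tests were chosen with earlier results of these data known. Genes named are the 10 members, the companions that were called, 15 further companions fixed by name, of which 1 was tested but is not reported here, and the 8 genes most like the members. Canx, Cd274, Cxcl9, Cxcl10, Gbp4, Igtp, Prf1, Elane, Zbtb22, H2-L, H2-Q9, H2-T9 and H2-T22 were named after their values were seen. Alternatives were library totals alone, size factors from DESeq2, its Wald test, limma-trend, no filter or a minimum of 10 counts per mouse, the replicate number as a block, each mouse left out, a pseudocount of 0.1 and a rank statistic. Removing each library's dependence on the GC content of the last 500 bases of transcripts (20 bins) was added after seeing the data.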

Additional observations from a re-analysis of the deposited data

How the results depend on the processing

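The directions of the 10 members held under all 20 alternatives to edgeR's fit, and Tap1, Tap2 and Psmb8 were called under each. With the replicate number as a block, 3 members (1 higher, 2 lower) and 2 companions were called, and Nlrc5 had an adjusted p of 0.0585 (0.000612 to 0.0585 over 20 alternatives). No pairing by replicate number was seen: the correlation of same-numbered mice's deviations lay between −0.0814 and 0.0391. No AD mouse correlated best with the AD+OB mouse of its own number. Such correlations cannot show whether same-numbered mice shared a batch, which the labels do not give. Leaving out each mouse, 4 to 7 members and 3 to 7 companions were called, the 3 companions without AD mouse 2 or AD+OB mouse 1 or 6, and the log2 ratio of H2-D1 over B2m lay between −0.32 and −0.15. Scaling by library totals alone made 59.1% of all calls higher, against 48.1% with TMM, and ended the call of Psmb10 (adjusted p = 0.0648).

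Log2 fold changes rose with GC content of the 3′ end, from a median of −0.08 in the 2725 genes of lowest GC content to 0.21 in the 2725 of highest. After the GC correction, chosen after seeing the data, 35.7% of all calls were higher and 5 members were called: Tap1 (−1.28), Tap2 (1.16), Psmb8 (−1.23), Psmb10 (−0.85) and Nlrc5 (−1.13). Tapbp then had 0.85 with an adjusted p of 0.0576. Psmb5 and Psmb6 were called lower only there (adjusted p 0.0486 and 0.0466). The cause of these shifts was not tested.

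Values near 0 changed sign. H2-M3 was at 0.30 with limma-trend, 0.63 with the replicate block and between −0.644 and 1.21 when mice were left out, and Psmb6 between −0.202 and 0.0042. Depth limits Psmb9 and Tap2 most among the members, and Klrd1, Cd8a and Ifng among the companions.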

Other observations

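Psmb7, the constitutive subunit, ran opposite to Tapbp over the 7 AD+OB mice (r = −0.91, rho = −0.96, and r = −0.98 without the 2 mice farthest from the median of Tapbp). Its counts were 2200, 2169 and 2517 in AD+OB mice 1, 2 and 4, the mice in which Tapbp was highest, and 4098 to 5531 in the other 4. Tapbp and Psmb9 ran together over the same mice (r = 0.90, and 0.60 without 2 mice). These pairs were chosen after their values were seen and were not tested.

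H2-L, a class I entry outside the lists, was assigned 106 counts in AD mouse 1 and 0 in each of the other 11 mice. The same mouse had the highest level of H2-K1 and H2-D1 and 75 counts of Cd8a. H2-Q9 had 2685, 2066, 1649, 1349 and 1462 counts in AD mice 1 to 5, the highest again in AD mouse 1. In AD+OB mice it had 1012 to 1776 counts. These counts are not scaled to library totals, and a comparison of the groups for H2-Q9 is not reported here. H2-T9, also outside the lists, had 304 to 793 counts per mouse. In every mouse its count was nearly that of H2-T22, a tested chain of the lists (304 to 795). These entries were chosen after their values were seen. Whether reads of near-identical class I genes are split between them or counted for both was not tested, nor was the origin of the reads counted on H2-L.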
